A study of Citrus x clementina and Citrus japonica with 6 samples.

Results

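Glutathione S-transferases were examined in fruit RNA of kumquat (Fortunella japonica, labelled Citrus japonica) and of Clementine mandarin (Citrus x clementina). The family was taken as every gene model whose first KEGG orthology name in the deposited table is glutathione S-transferase. This gave 71 of the 30139 models in the table. The series holds 6 RNA-seq libraries, 3 from kumquat and 3 from clementine, all from untreated, field-grown plants. Each library pooled fruit of 5 stages. Both fruits were picked 15, 30 and 45 days after flowering, and the last pair of stages was 80 and 120 days in kumquat and 100 and 180 days in clementine. Species and fruit age therefore cannot be told apart. For kumquat, the developmental stage entry speaks of Clementine mandarin fruit, but organism and cultivar are given as kumquat. Material came from 3 plants, but no label ties a library to a plant, so the p-values measure only the spread between these libraries, which may be technical.

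Glutathione S-transferases join the sulfur of the tripeptide glutathione to reactive or foreign compounds, which makes them soluble and marks them for removal. Plants carry large sets of these genes, often in rows of neighbouring copies. The plant-rich tau and phi classes do most of this conjugation, whereas lambda enzymes have a cysteine in the active site and act on already conjugated or oxidised compounds. The conjugates are pumped into the vacuole by ATP-binding cassette transporters of subfamily C. In maize and petunia, single family members are also needed to bring anthocyanin pigments into the vacuole.

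The label was checked against the other annotations. All 71 models carry the same single KEGG number. The protein match in the table names a glutathione S-transferase for 2 of them and is a hypothetical protein for the other 69. A molecular function term is present for 33 models. It includes a transferase activity for 11, a carbon-sulfur lyase activity for 4, and for 17 it reads only catalytic activity. The class is therefore known for 2 models: Ciclev10033001m matches F9 of sweet orange, a phi member, and Ciclev10033464m matches L3, a lambda member. No class is given here for the rest.

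Values are FPKM (fragments scaled to model length and to library size), which the authors computed. Both species are given on the same models. For 60 of the 71 members the protein match is the Clementine locus of the same number. The libraries were alike in scale, with 691560 to 707892 FPKM in all and 25523 to 26285 models above 0. Fragment totals are unknown. Steps between low values gave depths of 0.87 to 0.93 in kumquat and 0.96 to 1.00 in clementine, relative to clementine replicate 2. Tests used limma on log2(FPKM + 1) across 22050 models, those that reached 1 FPKM in 3 or more libraries. Calls required an adjusted p (Benjamini-Hochberg, over all tested models) under 0.05, and 57.1% of all tested models were called in either direction.

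The family as a whole stood higher in kumquat fruit. Its summed level was 3625.8, 3870.6 and 3915.1 FPKM in the kumquat libraries, against 2422.0, 2529.7 and 2484.9 FPKM in the clementine libraries. The groups did not overlap, and the mean was 1.53 times as high in kumquat (3804 ± 156 against 2479 ± 54.1, SD, n = 3 each). An exact two-sided permutation test gave p = 0.1, the smallest p that 3 against 3 libraries allow. The family took 0.524 to 0.553% of all FPKM in kumquat and 0.348 to 0.361% in clementine. These are bulk samples, so more cells of a type that expresses the family and more RNA per cell cannot be told apart.

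**Figure D1:**
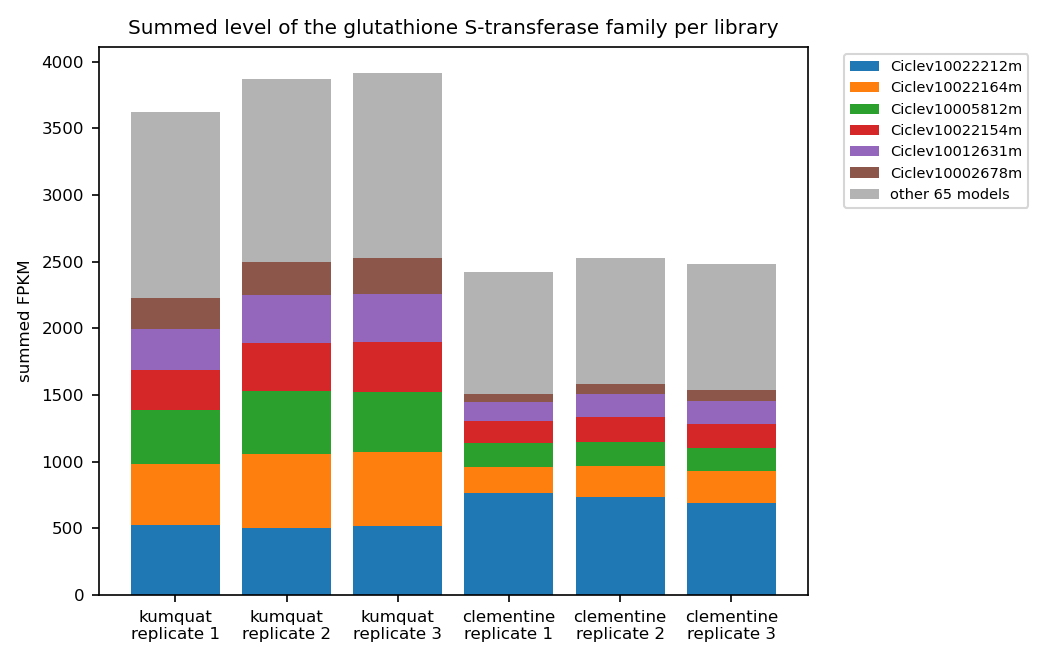
Summed FPKM of the 71 glutathione S-transferase models in each library (bars), split into the 6 models (1 colour each) with the highest mean over all libraries and the other 65. The kumquat bars reach 3625.8 to 3915.1 FPKM and the clementine bars 2422.0 to 2529.7 FPKM, and Ciclev10022212m is the segment that is smaller in every kumquat library.

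Most family members with a measurable level were higher in kumquat. Of the 44 members that passed the filter, 29 were called higher, or 65.9%, beside 29.9% of all tested models. Another 5 were called lower, or 11.4%, beside 27.1% of all tested models, and 10 were not called. When a fold change of 2 or more was also required, 19 members were higher and 3 lower, beside 12.4% and 12.1% of all tested models. The median log2 change of the 44 members was 0.72, against 0.04 over all tested models. The filter itself leans one way here: 7 members passed it through their kumquat libraries alone, and 0 through their clementine libraries alone.

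Counts that need no filter are therefore given over all 71 members. For 33 members every kumquat library was above every clementine library (46.5%, beside 27.5% of all 30139 models). For 7 members every kumquat library was below every clementine library (9.86%, beside 25.1% of all models). The other 31 members overlapped. The mean was higher in kumquat for 50 members and lower for 21, a split that was not counted over all models. Among the 9 members with a mean of at least 100 FPKM over all libraries, 8 were called higher and 1 lower. Of the 13 between 10 and 100 FPKM, 9 were called higher and 2 lower. Calls by level were not counted over all models, so these counts have no share to be read against.

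**Figure D2:**
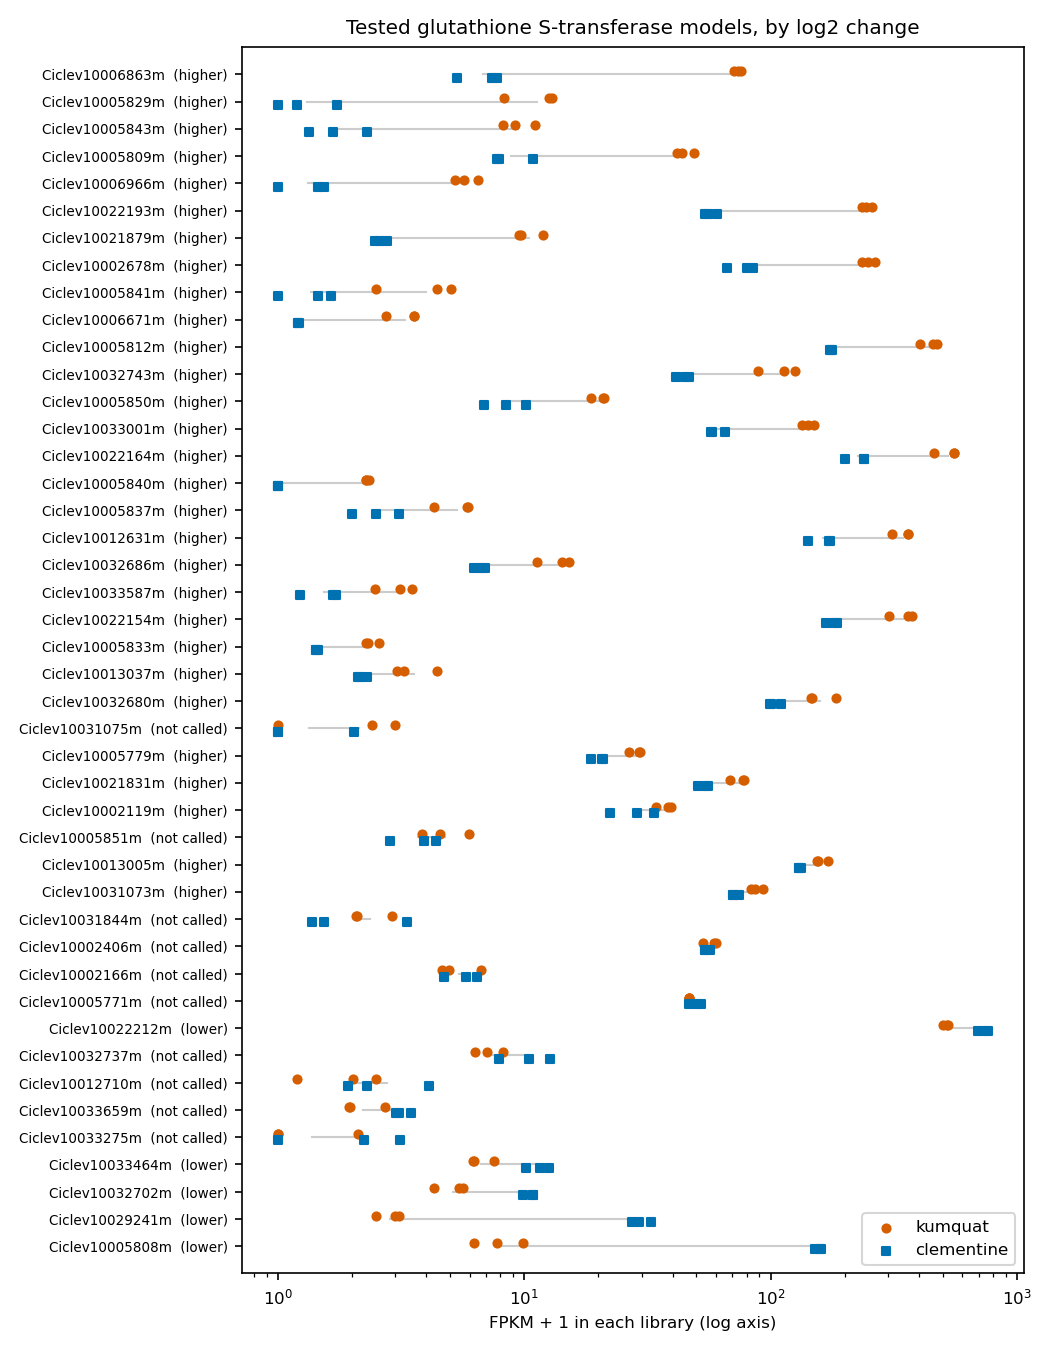
FPKM + 1 (log axis) of the 44 tested glutathione S-transferase models in every library, kumquat as circles and clementine as squares, ordered by log2 change with the call in brackets. Grey lines join the species means. The 29 models called higher lie in the upper part, and the 5 called lower include Ciclev10022212m, the most abundant model of the family.

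A few members carried most of the family's level. The 6 most abundant models made up 61.5 to 64.6% of the family sum in kumquat and 62.0 to 62.6% in clementine. Ciclev10022212m, a model with a transferase term, was the most abundant over all libraries and was lower in kumquat. It had 525, 502 and 518 FPKM in kumquat and 764, 733 and 691 FPKM in clementine, with no overlap. Its log2 change was -0.50 (SE 0.0565, adjusted p = 0.000221, limma). Without this model the family sum was 1.88 times as high in kumquat.

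The other 5 of these 6 models were higher in kumquat. Ciclev10022164m had 460.2, 555 and 553 FPKM in kumquat and 199.7, 238 and 239 FPKM in clementine, a log2 change of 1.21. Ciclev10005812m had 403, 475 and 454 FPKM in kumquat and 174, 177 and 174 FPKM in clementine, a log2 change of 1.33. Ciclev10022154m had 300.2, 360.3 and 375 FPKM in kumquat and 166, 185 and 179.9 FPKM in clementine, a log2 change of 0.95. None of these 3 models overlapped between the species. In both species, replicate 1 was the lowest library of each of them, and it was also the shallowest library of its species.

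Ciclev10012631m had 309, 361 and 362 FPKM in kumquat and 141, 173 and 171 FPKM in clementine, a log2 change of 1.09. Ciclev10002678m had 234, 249 and 265 FPKM in kumquat and 65.3, 78.9 and 83.7 FPKM in clementine, a log2 change of 1.71. Both were separate between the species. The 6 most abundant models had SEs of 0.0565 to 0.101 and limma adjusted p of 3.98e-06 to 0.000221.

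The gap between the leading models differed between the fruits. In clementine, Ciclev10022212m stood far above the next model, Ciclev10022164m, at 691 to 764 FPKM against 199.7 to 239 FPKM. In kumquat the same models overlapped, with Ciclev10022164m at 460.2 to 555 FPKM and Ciclev10022212m at 502 to 525 FPKM. The levels of Ciclev10022154m and Ciclev10012631m also overlapped in kumquat, as they did in clementine.

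The 8 largest rises among clearly expressed members included Ciclev10005812m and Ciclev10002678m, given above. On the log2(FPKM + 1) scale the largest was Ciclev10006863m, with 74.9, 72.5 and 70.2 FPKM in kumquat and 6.42, 4.31 and 6.75 FPKM in clementine. Its mean was 12.5 times as high in kumquat, a log2 change of 3.45 (SE 0.144). Ciclev10005829m had 11.7, 7.24 and 12.0 FPKM in kumquat and 0.19, 0 and 0.73 FPKM in clementine, a log2 change of 3.12, although by the ratio of means it was 33.5 times as high in kumquat. Ciclev10005843m had 7.20, 8.16 and 10.1 FPKM in kumquat and 1.30, 0.34 and 0.67 FPKM in clementine, a log2 change of 2.44. Neither of the last 2 passed 1.30 FPKM in clementine, a range where the log2(FPKM + 1) scale understates a change.

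Other large rises were of models expressed in both fruits. Ciclev10005809m had 40.6, 47.9 and 42.9 FPKM in kumquat and 6.89, 9.89 and 6.74 FPKM in clementine, a log2 change of 2.36. Ciclev10022193m had 235, 243 and 258 FPKM in kumquat and 53.2, 54.6 and 59.7 FPKM in clementine, 4.39 times as high on average. Ciclev10021879m, which carries the process term toxin metabolism, had 10.9, 8.74 and 8.54 FPKM in kumquat and 1.47, 1.60 and 1.76 FPKM in clementine. The rule that chose the 8 rises required a call and no overlap, so neither is a separate result. Their limma adjusted p lay between 3.81e-07 and 0.000108. Of these rises, Ciclev10005829m passed the filter through its kumquat libraries alone. The phi-class model Ciclev10033001m was higher as well, at 148, 140.5 and 133 FPKM in kumquat and 56.2, 64.0 and 56.7 FPKM in clementine (log2 change 1.24, SE 0.0714).

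Among the 5 members called lower, 3 changed by 2-fold or more on the log2(FPKM + 1) scale. Ciclev10005808m had 6.74, 5.28 and 8.87 FPKM in kumquat and 149.8, 157 and 159.9 FPKM in clementine. Its mean was 22.4 times as high in clementine, a log2 change of -4.32 (SE 0.151). Ciclev10029241m, which carries a lyase term, had 2.10, 1.50 and 1.99 FPKM in kumquat and 28.1, 26.5 and 31.8 FPKM in clementine, a log2 change of -3.38 (SE 0.135). Ciclev10032702m had 4.42, 4.66 and 3.29 FPKM in kumquat and 8.84, 9.90 and 9.85 FPKM in clementine, a log2 change of -1.05. The limma adjusted p of these falls lay between 7.5e-07 and 0.000757. The lambda-class model Ciclev10033464m was lower by less, at 6.56, 5.25 and 5.20 FPKM in kumquat and 11.7, 9.15 and 10.6 FPKM in clementine (log2 change -0.78, SE 0.142).

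Many members lie beside one another in the genome. The protein match of 40 members was found in the RefSeq gene table of the Clementine assembly Citrus_clementina_v1.0, with accession versions ignored for 5 of them. Members with at most 15 other entries between them in the order of that table were grouped, a limit chosen after the data were seen. This gave 11 groups with 35 members. The table's build need not be that of the deposited models, so no positions are given. How the authors divided fragments among near-identical copies is not given in the sources used here. The level of a single model in a group is uncertain for that reason, and the group sum is given beside it. Whether kumquat fragments were lost or moved between copies on models named for Clementine was not tested.

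One group holds 3 directly adjacent models, Ciclev10022164m, Ciclev10022193m and Ciclev10022154m. The first and the last carry a carbon-sulfur lyase term and the process term hormone-mediated signalling. All 3 were called higher in kumquat. Their sum was 995, 1159 and 1186 FPKM in kumquat and 419, 478 and 479 FPKM in clementine, 2.43 times as high in kumquat. This group alone held more FPKM than any other single group in kumquat.

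A row of 5 models went both ways. In annotation order it runs Ciclev10005808m, Ciclev10005812m, Ciclev10005809m, Ciclev10005779m and Ciclev10005771m, with 1 other entry between the third and the fourth. The first had the largest fall among called members, 22.4 times as high in clementine. Its direct neighbour Ciclev10005812m was 2.54 times as high in kumquat, and the next, Ciclev10005809m, was 5.58 times as high. Ciclev10005779m was higher by a log2 change of 0.50, and Ciclev10005771m was not called (-0.09). In clementine the first 2 models had similar levels, 156 ± 5.28 and 175 ± 1.83 FPKM. In kumquat they stood at 6.96 ± 1.81 and 444 ± 37.0 FPKM (SD, n = 3). Summed over the row, the level was 522, 602 and 580.1 FPKM in kumquat and 396, 415 and 408 FPKM in clementine, 1.40 times as high in kumquat.

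A longer stretch holds 9 members with up to 13 other entries between neighbours. Of these, 6 were called higher, 0 lower, 1 was not called and 2 were not tested. Over all tested models 29.9% were called higher and 27.1% lower. Ciclev10005829m, Ciclev10005833m and Ciclev10006966m, called higher, passed the filter through their kumquat libraries alone. The stretch contains 3 of the largest rises, Ciclev10006863m, Ciclev10005829m and Ciclev10005843m. Also in it, Ciclev10006966m had 4.22, 5.47 and 4.70 FPKM in kumquat and 0, 0.54 and 0.45 FPKM in clementine, and Ciclev10005850m had 19.9, 17.7 and 20.1 FPKM in kumquat and 7.41, 5.89 and 9.20 FPKM in clementine. Both were named after their values were seen. The stretch summed to 126, 117 and 123 FPKM in kumquat and 18.7, 15.6 and 20.8 FPKM in clementine. Its sum was 6.64 times as high in kumquat, but the stretch is a small part of the family's level.

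**Figure D3:**
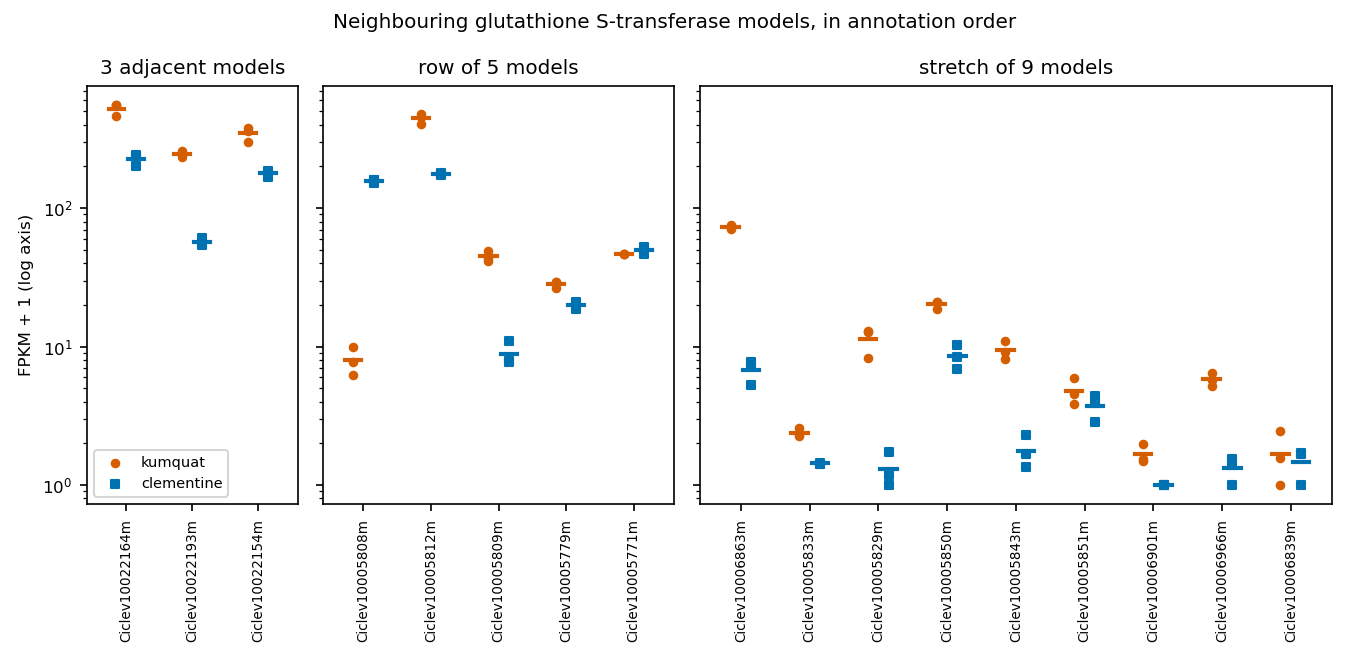
FPKM + 1 (log axis) of glutathione S-transferase models in 3 groups of neighbours, in the order of the RefSeq table, with 1 point per library (kumquat circles, clementine squares) and a line at each mean. All 3 models of the first group are higher in kumquat. In the row of 5, Ciclev10005808m is lower and its neighbours Ciclev10005812m and Ciclev10005809m are higher, and in the stretch of 9 no model was called lower.

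The other groups are small. In the pair of Ciclev10032743m and Ciclev10032737m the first was higher, at 108 ± 18.3 against 43.4 ± 2.77 FPKM, and the second was not called, at 6.20 ± 0.955 against 9.38 ± 2.45 FPKM (kumquat against clementine, SD, n = 3 each). Without clementine replicate 3 the second was called lower (log2 change -0.69, adjusted p = 0.019, limma). Ciclev10032702m and its direct neighbour Ciclev10032686m were called in opposite directions, with log2 changes of -1.05 and 1.02. The sum of their group of 3 was 17.7 ± 2.81 FPKM in kumquat and 15.9 ± 0.0200 FPKM in clementine. Ciclev10022212m and Ciclev10029241m each have 1 member nearby, which stayed under the filter.

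A large part of the family was hardly expressed in either fruit. The filter left out 27 members, none of which passed 2.93 FPKM in any library. Together they summed to 10.1 ± 1.03 FPKM in kumquat and 9.20 ± 1.93 FPKM in clementine. An exact 0 in such a table can be a failed estimate, and 30 members are listed at 0 in at least 1 library. In all 3 kumquat libraries 5 members are listed at 0, and in all 3 clementine libraries 6 are.

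Among these, 2 members averaged at least 1 FPKM in the other species. Ciclev10005840m is listed at 0 in every clementine library and had 1.34, 1.27 and 1.27 FPKM in kumquat. Ciclev10031980m is listed at 0 in every kumquat library and had 0.89, 2.60 and 2.93 FPKM in clementine, and it was not tested. It shares its protein match with Ciclev10031844m and Ciclev10031976m, which had 1.91, 1.07 and 1.09 FPKM and 0, 0.98 and 1.01 FPKM in kumquat, against 2.34, 0.54 and 0.37 FPKM and 0, 0 and 0.25 FPKM in clementine. The sum of the 3 models was 1.91, 2.05 and 2.10 FPKM in kumquat and 3.23, 3.14 and 3.55 FPKM in clementine. The sums did not overlap, with a log2 change of -0.51 (SE 0.145, adjusted p = 0.0145, limma).

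Of the 10 tested members that were not called, the most abundant was Ciclev10002406m. It had 52.1, 59.1 and 57.9 FPKM in kumquat and 53.3, 53.2 and 55.7 FPKM in clementine. Its log2 change was 0.06, with a 95% interval from -0.09 to 0.21. Ciclev10005771m had 45.8, 45.4 and 45.7 FPKM in kumquat and 45.6, 51.1 and 49.3 FPKM in clementine, with an interval from -0.23 to 0.06. For both models the interval leaves out a 2-fold change.

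Levels of other enzymes that make, use and export glutathione were read from 7 lists of KEGG names, chosen with earlier results of these data known. Synthesis had 4 tested models, of which 1 was higher and 1 lower in kumquat (25% each, beside 29.9% and 27.1% of all tested models). Glutathione synthase, which completes the tripeptide, has 1 model, Ciclev10000728m, at 24.0, 27.1 and 25.2 FPKM in kumquat and 15.2, 12.6 and 13.5 FPKM in clementine (log2 change 0.84, adjusted p = 0.000217, limma). The most abundant model of glutamate-cysteine ligase, the first step, is Ciclev10019701m. It had 29.3, 36.3 and 34.7 FPKM in kumquat and 31.5, 32.2 and 30.6 FPKM in clementine, and was not called. The lower model, Ciclev10020046m, is another ligase model, at 0.19, 0.69 and 0.32 FPKM in kumquat and 3.62, 3.65 and 3.39 FPKM in clementine. Summed with the other models of its named locus, its log2 change of -1.72 became 0.09 and was not called (adjusted p = 0.375, limma).

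In cysteine supply, 20 models were tested, with 8 called higher (40%, beside 29.9% of all tested models) and 4 called lower (20%, beside 27.1%). Without kumquat replicate 3, or without clementine replicate 3, 2 were lower. Ciclev10020662m, annotated as cyanoalanine and cysteine synthase, had 72.7, 74.6 and 74.7 FPKM in kumquat and 15.7, 16.3 and 15.2 FPKM in clementine. Ciclev10008354m, a cysteine synthase, was lower at 7.05, 5.03 and 5.18 FPKM in kumquat and 14.9, 10.9 and 12.5 FPKM in clementine. Glutathione reductase and peroxidase, which recycle glutathione and spend it on peroxides, had 15 tested models, with 7 called higher (46.7%) and 3 called lower (20%). The list summed to 828 to 917 FPKM in kumquat and 638 to 659 FPKM in clementine. Its most abundant model, the peroxidase Ciclev10022130m, was called higher, at 458, 525 and 527 FPKM in kumquat and 310, 325 and 298 FPKM in clementine. A glutathione reductase, Ciclev10004818m, had the highest level among those higher by 2-fold or more, at 12.3, 3.77 and 3.81 FPKM in kumquat and 2.41, 0.99 and 0 FPKM in clementine. That call was not stable. Its adjusted p (limma) was 0.0227 and became 0.0579 without kumquat replicate 1, 0.0568 without clementine replicate 2, 0.0686 without clementine replicate 3 and 0.0578 with a pseudocount of 0.1. Summed with the models of its protein match or of its locus, the log2 change of 1.83 became 0.15 (adjusted p = 0.0548 and 0.0516). On the other side was Ciclev10001350m, which carries the names of a mitochondrial peptidase, glutathione reductase and DNA topoisomerase II, at 6.20, 4.68 and 4.76 FPKM in kumquat and 15.0, 12.2 and 14.0 FPKM in clementine.

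The list of subfamily C transporters, whose plant members move glutathione conjugates into the vacuole, had 15 tested models. Of these, 10 were called higher (66.7%, beside 29.9% of all tested models) and 1 lower (6.67%, beside 27.1%). The lower call was lost when any of 5 libraries was left out, with the replicate block, with a pseudocount of 0.1, with no filter and with the filters of 5 FPKM and on the mean. The median log2 change of the list was 1.28. The list summed to 356 to 399 FPKM in kumquat and 170 to 190 FPKM in clementine. Among the models called higher, Ciclev10014069m, Ciclev10004149m and Ciclev10014056m passed the filter through their kumquat libraries alone. Without the filter the list has 26 models. Every kumquat library was above every clementine library for 13 of them (beside 27.5% of all models) and below for 2 (beside 25.1%). Ciclev10014029m had the highest level among those higher by 2-fold or more, at 79.5, 80.0 and 72.4 FPKM in kumquat and 31.1, 28.9 and 29.4 FPKM in clementine (log2 change 1.35, adjusted p = 3.25e-06, limma). Of the 8 tested models first named as member 2 of the subfamily, 7 were higher and 1 was not called. Those 7 include the models that passed the filter through kumquat alone. Also among the 7, Ciclev10004145m had 58.2, 56.7 and 51.7 FPKM in kumquat and 5.18, 4.71 and 4.38 FPKM in clementine. That subgroup and that model were singled out after their values were seen. Models first named as member 1 were mixed, and of 5 tested 1 was higher and 1 lower.

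Breakdown of glutathione and its conjugates had 10 tested models. Of these, 3 were called higher (30%, beside 29.9% of all tested models) and 5 lower (50%, beside 27.1%). The text pattern also caught S-formylglutathione hydrolase, 1 model not called, and hydroxyacylglutathione hydrolase, 2 models called lower. Of 3 models first named gamma-glutamyltranspeptidase, 1 was higher and 2 lower. Of 3 first named 5-oxoprolinase, 2 were higher and 1 was not called. Ciclev10023053m, named as an alcohol dehydrogenase and as gamma-glutamyltranspeptidase, an enzyme that trims conjugates, had 14.0, 20.6 and 14.7 FPKM in kumquat and 107, 95.1 and 96.4 FPKM in clementine. Ciclev10019764m, annotated as 5-oxoprolinase, which returns glutamate from glutathione, was higher at 17.7, 14.7 and 14.5 FPKM in kumquat and 5.73, 6.92 and 4.54 FPKM in clementine. The glyoxalase pathway, which uses glutathione to clear methylglyoxal, had 12 tested models. In it, 3 were called higher (25%, beside 29.9%) and 7 lower (58.3%, beside 27.1%), or 4 lower without clementine replicate 2. By first name, 1 lower model is a BAHD acyltransferase and 1 higher model a Wiskott-Aldrich syndrome protein. The sum of the list was not lower in kumquat, at 1106 to 1119 FPKM against 1072 to 1093 FPKM in clementine. Its most abundant model, the lactoylglutathione lyase Ciclev10016136m, was lower, at 515, 480 and 487 FPKM in kumquat and 612, 624 and 627 FPKM in clementine. The glyoxalase list shares the 2 hydroxyacylglutathione hydrolase models with the breakdown list. Ciclev10016134m, a lactoylglutathione lyase, had 253, 268 and 259 FPKM in kumquat and 65.8, 64.8 and 60.4 FPKM in clementine. Ciclev10029359m, another, was lower at 0.66, 1.45 and 0 FPKM in kumquat and 2.40, 3.54 and 2.08 FPKM in clementine, with an adjusted p of 0.021, or 0.0722 without clementine replicate 2 and 0.0682 with a pseudocount of 0.1 (limma). Summed with the models of its protein match or of its locus, its direction turned, with a log2 change of 0.26 in place of -1.18 (adjusted p = 0.00702 and 0.00601).

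The list of late anthocyanin synthesis had 40 tested models, with 14 called higher (35%, beside 29.9% of all tested models) and 17 called lower (42.5%, beside 27.1%). Under the 5 FPKM filter 10 of 24 were lower. Its text pattern also caught leucoanthocyanidin reductase, an enzyme of proanthocyanidin synthesis, with 17 of the 40 models, 5 higher and 9 lower. Another 12 were first named flavonol synthase, ahead of leucoanthocyanidin dioxygenase, with 3 higher and 6 lower. All 4 first named leucoanthocyanidin dioxygenase were higher, as was the 1 first named anthocyanidin 3-O-glucosyltransferase. Of 2 first named dihydroflavonol 4-reductase, 1 was higher and 1 not called. These first names were read after the values were seen. Both named models are leucoanthocyanidin reductases. Ciclev10028904m had 315, 286 and 295 FPKM in kumquat and 137, 132 and 127 FPKM in clementine. Ciclev10028896m had 45.3, 46.1 and 41.4 FPKM in kumquat and 136, 135 and 141 FPKM in clementine.

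**Figure D4:**
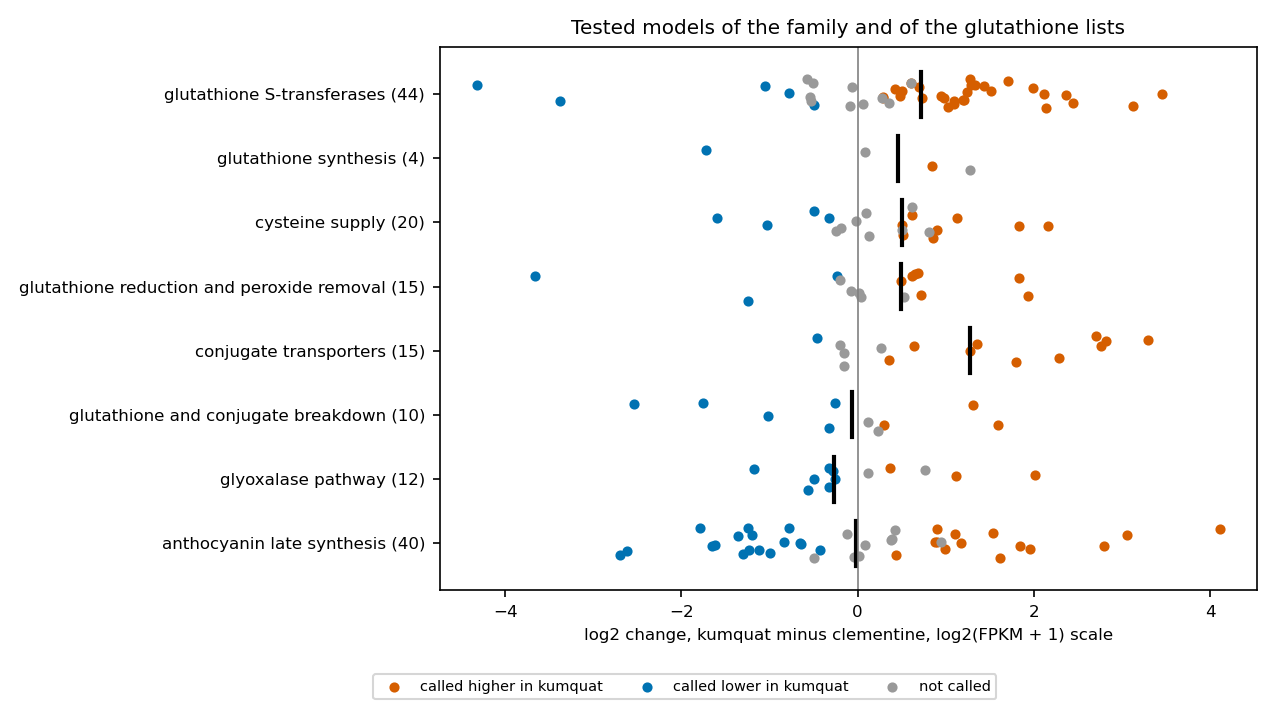
Log2 change (kumquat minus clementine, log2(FPKM + 1) scale) of every tested model of the family and of the 7 lists, 1 point per model, with the number tested in brackets and a black line at the median. The medians are 0.72 for the glutathione S-transferases and 1.28 for the conjugate transporters, and -0.02 for late anthocyanin synthesis. The last list includes 17 models first named leucoanthocyanidin reductase and 12 first named flavonol synthase.

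Markers of green tissue and of seeds also differed between the fruits. Of 61 tested green tissue markers, 32 were lower in kumquat (52.5%, beside 27.1% of all tested models) and 7 higher (11.5%, beside 29.9%). The list summed to 11061 to 12392 FPKM in kumquat and 12788 to 14029 FPKM in clementine. The seed list matched only 3 models, all higher in kumquat, with a sum of 2468 to 2971 FPKM against 644 to 808 FPKM in clementine. They were 2 models matched to the late embryogenesis abundant protein Lea5, a family that is also made outside seeds under stress, and a vicilin-like model, Ciclev10027019m, at 83.0, 85.8 and 80.8 FPKM in kumquat and 32.3, 30.1 and 29.4 FPKM in clementine. Most of the seed list sum came from 1 of the Lea5 models, Ciclev10006308m. It had 2349, 2655 and 2851 FPKM in kumquat and 605, 769 and 729 FPKM in clementine. The part of tissue makeup in the differences above was not tested.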

How the data were processed

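The authors deposited 1 table of FPKM per gene model for 6 libraries, per the file headers. HISAT, StringTie and DESeq2 are listed without versions or roles, per the submitters' processing notes. Genome build and annotation: not given in the sources used here. The protein match is the Clementine locus of the same number for 60 of the 71 members. The part of sequence differences between the species in the kumquat levels was not tested. FPKM are not counts and fragment totals are unknown, so no counting intervals are given.

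The tests were two-sided and had no covariate. They were run in limma 3.58.1 (R 4.3.3), whose prior variance followed the mean. Differences are kumquat minus clementine. The members and lists were chosen with earlier results of these data known.

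Named members were the 6 most abundant, the 8 largest rises and up to 8 falls among called members (2-fold or more, no overlap, mean of 5 FPKM or more in the higher species), those listed at 0 throughout 1 species with a mean of 1 FPKM or more in the other, the most abundant of each named class, and models sharing a match with any of these rises, falls or 0 values. This gave 21 members. In each list, the called model of highest level with a change of 2-fold or more was taken in each direction. Models named outside the rule serve the comparison beside them and were chosen after their values were seen.

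On simulated data with 200 of 22050 models changed, the share recovered was 14% for log2 changes of 0.5, 68% for 1, 86% for 2 and 98% for 3, and 6 of 139 calls were of unchanged models. In the data 57.1% of tested models were called, and the adjusted p depends on that share. The simulated shares therefore need not hold for the data. Alternatives tried were a pseudocount of 0.1, no filter and a filter of 5 FPKM, median scaling, a replicate term, leaving out each library, a constant prior variance, summed models and a wider name rule. Summing by named locus and a filter on the mean were added after seeing the data. No sequence was given for the members, and none is printed.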

Additional observations from a re-analysis of the deposited data

How the results depend on the processing

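Among glutathione S-transferases the number called higher in kumquat lay between 27 and 31 under every alternative but the 5 FPKM filter (21 of 29 tested) and the wider name rule (39 of 63 tested). Each of the 5 members called lower was called again under every alternative that keeps single models. With a common protein match, or a common named locus, taken as 1 summed model, 8 were lower in either case. The further 3 were Ciclev10032737m, Ciclev10033659m and the sum that includes Ciclev10031844m, whose own log2 change of 0.28 became -0.51 in both summations. With any KEGG name containing the family name, 13 were lower. That rule takes in the models named putative glutathione S-transferase, of which 8 were lower. The summed level was 1.88 times as high in kumquat without Ciclev10022212m. Leaving out 1 library in turn gave 27 to 29 higher, 5 to 6 lower and a ratio of sums of 1.51 to 1.57. Over all tested models it gave 5860 to 6216 higher and 5229 to 5842 lower.

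Outside the family, Ciclev10020046m turned to 0.09 when summed by locus and Ciclev10029359m to 0.26 in both summations. Of 741 values of named models under the alternatives, 722 kept their direction and side of the threshold.

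Deviations of same-numbered libraries correlated weakly, at 0.119, 0.042 and 0.066. Libraries of different number gave -0.078 to 0.021, so each library correlated best with its own number. Whether the replicate numbers pair the libraries is not known. With the replicate block, 29 members were higher and 5 lower. Without fragment totals, little can be said of members under 1 FPKM.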

Other observations

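Families with related names were read for comparison, chosen after the data were seen. Maleylacetoacetate isomerase, the activity of zeta-class glutathione S-transferases in tyrosine breakdown, has 15 models, of which 8 were tested. Of these, 4 were higher in kumquat (50%, beside 29.9% of all tested models), 1 was lower (12.5%, beside 27.1%) and 3 were not called. Their sum was 119 to 129 FPKM in kumquat and 76.5 to 89.1 FPKM in clementine. Ciclev10003032m, matched to a zeta-class transferase, had 2.86, 3.16 and 1.34 FPKM in kumquat and 0, 0.41 and 0.20 FPKM in clementine. Ciclev10002464m was lower, at 0.88, 2.10 and 1.11 FPKM in kumquat and 5.43, 5.88 and 4.71 FPKM in clementine.

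The KEGG name putative glutathione S-transferase covers another 37 models. Of 19 tested, 10 were higher (52.6%, beside 29.9% of all tested models), 8 lower (42.1%, beside 27.1%) and 1 was not called. The family rule takes the exact first name, so these models were kept apart from the family. Protein matches of 2 of the 37 name a UPF0481 protein and none names a transferase. In the family, too, the match is a hypothetical protein for 69 of 71 members. Ciclev10031442m was their most abundant model at least 2-fold higher, at 75.4, 79.3 and 77.3 FPKM in kumquat and 31.9, 35.0 and 33.3 FPKM in clementine.

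Ciclev10005840m had 1.34, 1.27 and 1.27 FPKM in kumquat replicates 1 to 3, whose relative depths were 0.87, 0.91 and 0.93. The higher value stood in the shallowest library.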
